A study of Caenorhabditis elegans with 14 samples.

Results

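The genes described are mcm-2, mcm-3, mcm-4, mcm-5, mcm-6, mcm-7 and pcn-1 of Caenorhabditis elegans, which encode the subunits of the replicative MCM helicase and the sliding clamp PCNA. They were chosen by name from the deposited expression table, and all 7 were found among its 20376 usable genes. RNA of whole worms was sequenced in 2 strains whose sex does not follow their X chromosome number. Animals of TY2205 carry 1 X chromosome and develop as hermaphrodites (XO hermaphrodites), and the strain is known to be mutant for her-1, sdc-3 and xol-1. CB5362 animals carry 2 X chromosomes and develop as males (XX males), and the strain is known to be mutant for tra-2 and xol-1. L3 larvae had grown for 24 h past the overnight hatch, at a temperature the labels do not give, and young adults for 44 h at 25 °C. XO hermaphrodites gave 3 libraries at each stage, and XX males gave 3 at L3 and 4 as young adults. Another young adult sample of TY2205, which its submitters marked as reverted, entered no comparison. Wild-type animals were not part of the series, and strain, sex and X number differ together between the groups, so these cannot be told apart in any comparison.

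The MCM proteins form a ring of 6 different, related ATPases. In species from yeast to human, the origin recognition complex, CDC6 and CDT1 load this ring onto DNA in G1 phase. In S phase the ring unwinds DNA at the replication fork together with CDC45 and the GINS complex. PCNA, made of identical subunits, encircles DNA behind the helicase and tethers polymerases, the FEN1 nuclease and DNA ligase. In C. elegans larvae these proteins serve the divisions of somatic blast cells and the growing germ line, and in adults most dividing cells lie in the germ line. Oocytes also stock replication proteins for the rapid divisions of the embryo. The mcm-4 gene is also known as lin-6, and its mutants fail in postembryonic DNA replication.

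Expression was deposited in FPKM, fragments scaled by transcript length and by library, so levels can be compared between genes per length. The total depth is unknown, but the steps between the lowest values gave depths relative to XX male young adult replicate 1. They ran from 0.225 to 0.914 at L3 and from 0.62 to 1.46 in young adults. The FPKM values summed to between 916127 and 940071 in XO hermaphrodite young adults and to between 1159056 and 1574087 in the other groups. The xol-1 gene was listed at 0 in all 13 libraries. The sdc-3 gene lay at 0.24 to 0.416 FPKM in the libraries of TY2205 and at 1.32 to 5.31 FPKM in those of CB5362. The her-1 gene, also mutant in TY2205, was higher there, at 9.83 to 42.7 FPKM against 0.401 to 1.69 FPKM. The tra-2 gene, mutant in CB5362, lay at 14.9 to 19.5 FPKM in that strain and at 7.25 to 38.5 FPKM in TY2205. Tests were made with limma on log2(FPKM + 1) across the 14628 genes that averaged 1 FPKM or more, all 7 members among them. A gene was called where its Benjamini-Hochberg adjusted p was below 0.05, and a log2 difference understates the change of low genes on this scale. Since whole worms were used, fewer cells of a type and less RNA per cell cannot be told apart. Whether replicates were separate cultures is not stated, and the p-values therefore reflect only how these libraries spread, which may be technical.

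All 7 genes had the same order of group means. XO hermaphrodite young adults were highest, followed by XX male L3 larvae, XO hermaphrodite L3 larvae and, lowest, XX male young adults. The highest group did not overlap the next for any of the 7 genes, and 30.6% of all tested genes were likewise higher without overlap. XX male L3 and XO hermaphrodite L3 larvae overlapped for mcm-2 and pcn-1, and the other 5 genes did not overlap, as 13.2% of all tested genes did not in that direction. XO hermaphrodite L3 larvae overlapped XX male young adults for mcm-7, and the other 6 genes did not overlap, as 27.5% of all tested genes did not in that direction. In XO hermaphrodite young adults the MCM genes ranked between 612 (mcm-7) and 1325 (mcm-5) from the top of the 20376 genes by mean FPKM, and pcn-1 ranked 302. In XX male young adults the same ranks ran from 5609 (mcm-2) to 8667 (mcm-6), and pcn-1 ranked 2589. The genes lie on 5 autosomes and none on the X chromosome, with mcm-4 on I, mcm-2 on II, mcm-5 and mcm-6 on III, pcn-1 on IV, and mcm-3 and mcm-7 on V in the table.

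**Figure D1:**
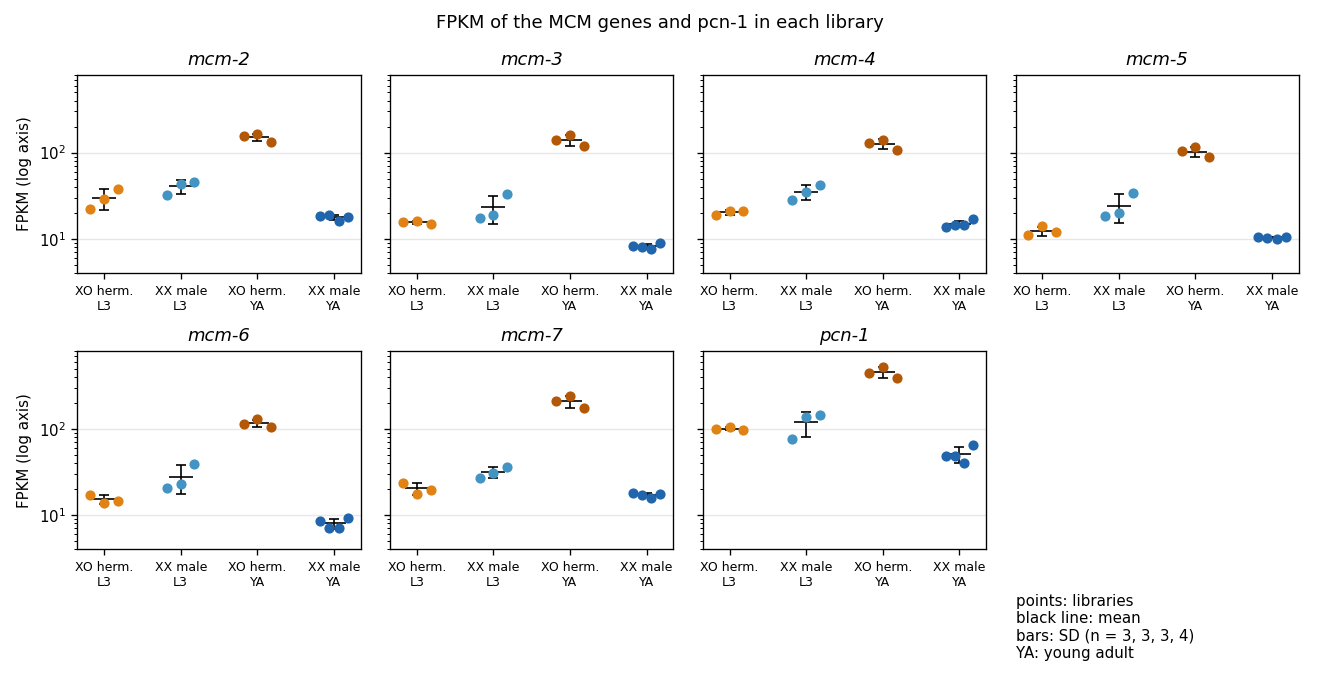
FPKM of each MCM gene and pcn-1 on a log axis, by group (XO herm., XO hermaphrodite; YA, young adult). Points are libraries, the black line is the mean and the bars are SD (n = 3, 3, 3 and 4); XO hermaphrodite young adults lie above all other groups in every panel, with pcn-1 between 394 and 530.5 FPKM there.

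Young adults differed most. All 7 genes were higher in XO hermaphrodites, with ratios of mean FPKM from 8.48 for mcm-4 to 17.0 for mcm-3, and no gene overlapped between the groups. Of all tested genes, 33.9% were called higher in this comparison and 37.5% were higher without overlap. The median log2 difference of the 7 genes was 3.17, against -0.11 over all tested genes, and at most 2.33% of tested genes had a larger difference than any given member. The XX male young adult columns hold values for 13 genes that the other columns lack, and the sources do not say if their quantification differed.

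The subunits encoded by mcm-2 and mcm-5 form the gate through which DNA enters the ring in yeast. The XO hermaphrodite young adult libraries held 155, 164 and 134 FPKM of mcm-2, and the XX male libraries held 18.4, 18.8, 16.1 and 17.8 FPKM. Every XO hermaphrodite library was therefore above every XX male library, and the log2 difference was 3.02 (SE 0.19, limma adjusted p = 4.65e-08). For mcm-5 the values were 103.5, 115 and 87.8 FPKM against 10.5, 10.3, 10.0 and 10.6 FPKM. The XX male libraries of mcm-5 spread by an SD of only 0.237 FPKM (n = 4), and the log2 difference was 3.17 (SE 0.21, limma adjusted p = 5.69e-08).

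The MCM-3 protein sits beside MCM-5 in the ring and brings the ring to the loading factors in yeast. Libraries of XO hermaphrodite young adults held 140.3, 159 and 119 FPKM of mcm-3, and those of XX males 8.27, 8.01, 7.57 and 8.97 FPKM. This was the largest difference among the members, at 3.92 on the log2 scale (SE 0.20, limma adjusted p = 6.43e-09), and the groups were far apart in every library.

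The subunits encoded by mcm-4, mcm-6 and mcm-7 form a subcomplex with helicase activity of its own in mammals and yeast. For mcm-4 the XO hermaphrodite libraries held 129.8, 141 and 108 FPKM and the XX male libraries 13.8, 14.5, 14.4 and 16.8 FPKM. For mcm-6 they held 113, 130.1 and 106 FPKM against 8.48, 7.04, 7.17 and 9.30 FPKM. For mcm-7, the most abundant MCM transcript of this group, they held 213, 241 and 174 FPKM against 18.02, 16.97, 15.7 and 17.5 FPKM. The groups did not overlap for any of the 3 genes, and the log2 differences were 2.996 (SE 0.17) for mcm-4, 3.71 (SE 0.21) for mcm-6 and 3.53 (SE 0.17) for mcm-7. Their limma adjusted p-values were 1.2e-08, 1.8e-08 and 2.3e-09. Among the MCM genes the 95% confidence interval ran from 3.48 to 4.37 for the largest difference, mcm-3, and from 2.64 to 3.36 for the smallest, mcm-4, and whether the genes differ from each other was not tested.

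The clamp gene pcn-1 was the most abundant of the 7 genes in every library. It stood at 443, 530.5 and 394 FPKM in XO hermaphrodite young adults and at 49.1, 48.7, 40.2 and 65.2 FPKM in XX males. The groups were separated by a ratio of means of 8.97 and a log2 difference of 3.15 (SE 0.23, limma adjusted p = 1.76e-07). XO hermaphrodite replicate 3 was the lowest of its group for all 7 genes, and without it the direction and the call were kept for each of them.

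**Figure D2:**
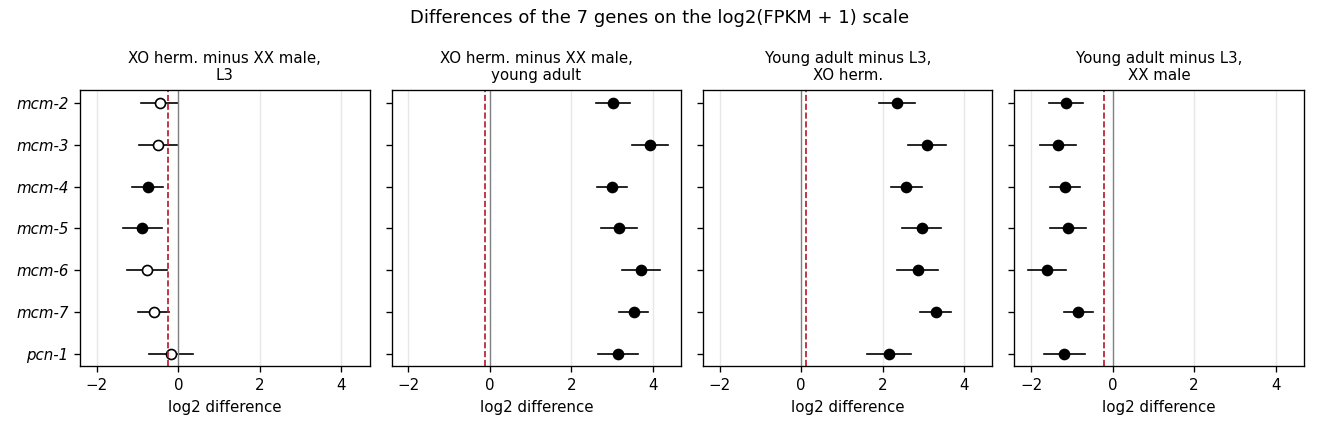
Log2 differences of the 7 genes on the log2(FPKM + 1) scale in 4 comparisons, with 95% confidence intervals; filled points were called by limma and open points were not. The dashed red line is the median of all tested genes, and the 7 genes lie near 3 to 4 in young adults and below 0 at L3.

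At L3 the estimates of all 7 genes had the opposite direction, and the differences were small. Of the 7 genes, mcm-4 and mcm-5 were called lower in XO hermaphrodite larvae and the other 5 were not called, beside 4.31% of all tested genes called lower. The median log2 difference of the 7 was -0.60, against -0.25 over all tested genes, and pcn-1 lay above the latter at -0.18. The fit pools the spread of all 4 groups, and young adults varied less; with the 6 larval libraries fitted alone in limma, neither gene was called (adjusted p = 0.322 for mcm-4 and 0.368 for mcm-5). The calls were also lost under median ratio, upper quartile and quantile scaling, and without XO hermaphrodite replicate 2, XO hermaphrodite replicate 3 or XX male replicate 3.

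Among the genes of the gate, mcm-2 stood at 22.2, 28.7 and 37.8 FPKM in XO hermaphrodite larvae and at 32.3, 43.4 and 46.2 FPKM in XX male larvae. These groups overlapped, and the log2 difference of -0.46 did not pass (SE 0.20, limma adjusted p = 0.167). For mcm-5 the values were 10.98, 13.9 and 11.9 FPKM against 18.5, 19.7 and 34.4 FPKM. These groups did not overlap, and the log2 difference was -0.88 (SE 0.22, limma adjusted p = 0.0388). The gene mcm-3 stood at 15.4, 16.2 and 14.7 FPKM against 17.6, 19.0 and 32.9 FPKM, with a log2 difference of -0.50 that did not pass (limma adjusted p = 0.163).

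In the group of mcm-4, mcm-6 and mcm-7 no gene overlapped between the larvae. The gene mcm-4 stood at 18.7, 20.9998 and 20.9 FPKM in XO hermaphrodite larvae and at 28.3, 34.98 and 41.8 FPKM in XX male larvae, a log2 difference of -0.75 (SE 0.18, limma adjusted p = 0.0323). The gene mcm-6 stood at 17.3, 13.7 and 14.7 FPKM against 20.5, 22.99 and 39.2 FPKM, and mcm-7 at 23.7, 17.6 and 19.8 FPKM against 27.2, 31.0 and 36.1 FPKM. Neither passed, with log2 differences of -0.76 and -0.60 (limma adjusted p = 0.0667 and 0.0629). In all, 5 of the 7 genes were lower without overlap, as were 13.2% of all tested genes.

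The pcn-1 gene stood at 100.6, 106 and 96.9 FPKM in XO hermaphrodite larvae and at 75.9, 137 and 145 FPKM in XX male larvae. The XX male values spanned those of the XO hermaphrodites. Its log2 difference was -0.18 (SE 0.25, 95% interval -0.71 to 0.35, limma adjusted p = 0.651), and it was 0.16 with upper quartile scaling. XX male replicate 1 was the lowest and replicate 3 the highest XX male larval library for each of the 7 genes. Replicate 3 was the deepest library of both larval groups. In these deeper libraries the summed FPKM of the 6 MCM genes was 119.8 in XO hermaphrodite and 231 in XX male larvae, and in replicates 1 and 2 it averaged 109.7 and 158.

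The change of the strain difference between stages was tested as an interaction. It passed for all 7 genes, from 3.33 on the log2 scale for pcn-1 (SE 0.34, limma adjusted p = 5.79e-06) to 4.47 for mcm-6 (SE 0.31, limma adjusted p = 2.41e-07). Of all tested genes 32.6% were called in that direction, with a median of 0.07.

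The comparisons between stages share their libraries with those above and are no separate evidence. In XO hermaphrodites all 7 genes rose from L3 to young adult, beside 33.7% of all tested genes called higher and 39.2% higher without overlap. Ratios of mean FPKM ran from 4.51 for pcn-1 to 10.3 for mcm-7. The log2 differences ran from 2.15 (SE 0.25, limma adjusted p = 9.36e-06) to 3.30 (SE 0.18, limma adjusted p = 1.38e-08) for the same genes, against a median of 0.13 over all tested genes. In XX males all 7 fell, beside 28.5% of all tested genes called lower and 32.8% lower without overlap. The fall was smallest for mcm-7, from 31.5 ± 4.42 FPKM (SD, n = 3) to 17.1 ± 0.982 (n = 4), a log2 difference of -0.84 (SE 0.17, limma adjusted p = 0.00105). It was largest for mcm-6, from 27.6 ± 10.2 to 7.998 ± 1.09 FPKM, a log2 difference of -1.62 (SE 0.21, limma adjusted p = 4.92e-05). Any effect of an unrecorded L3 temperature cannot be told apart from stage.

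The transcripts of the MCM ring were of like abundance, but their proportions differed between the young adult groups. The highest MCM gene exceeded the lowest by a factor of 1.4 to 3.18 in single libraries. In all 4 XX male young adult libraries and in all 3 XX male larval libraries mcm-2 was the highest, whereas mcm-7 was the highest in all 3 XO hermaphrodite young adult libraries. In XO hermaphrodite larvae mcm-2 was the highest in replicates 2 and 3 and mcm-7 in replicate 1. Of the summed FPKM of the 6 genes, mcm-3 made up 16.3 to 16.7% in XO hermaphrodite young adults and 10.6 to 11.1% in XX male young adults. The share of mcm-6 was 13.3 to 14.6% against 9.31 to 11.5%, and that of mcm-7 was 23.9 to 25.4% against 21.7 to 23.2%. The share of mcm-2 was lower in XO hermaphrodite young adults, at 17.3 to 18.4% against 21.998 to 24.8%, as were those of mcm-4 (14.8 to 15.2% against 17.8 to 20.7%) and mcm-5 (12.03 to 12.1% against 13.1 to 14.1%). None of the 6 shares overlapped between the young adult groups, and these shares are given as a description with no test. By FPKM, 37.5% of all tested genes were higher and 38.1% lower without overlap between these groups. Shares of the same sum also depend on each other. In larvae the ranges of all 6 shares overlapped between the groups. The pcn-1 level was 3.11 to 3.35 times the mean MCM level in XO hermaphrodite young adults and 3.39 to 4.84 times in XX males. At L3 it was 4.86 to 5.71 times in XO hermaphrodites and 3.15 to 4.80 times in XX males.

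**Figure D3:**
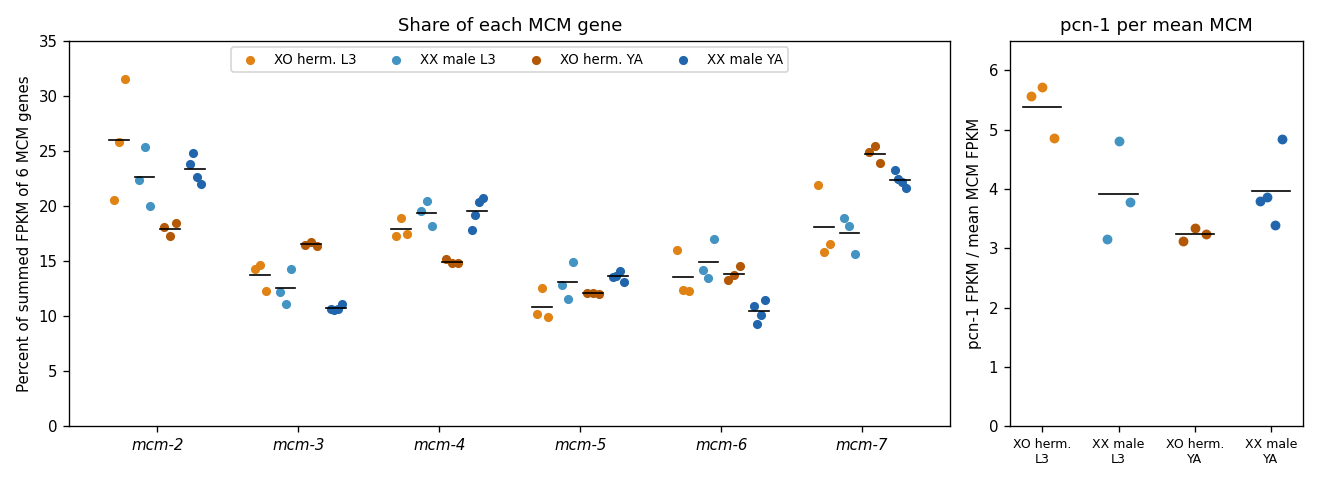
Left, percent of the summed FPKM of the 6 MCM genes that each gene makes up, by library (points) with group means (lines). Right, pcn-1 FPKM divided by the mean MCM FPKM of the library; mcm-3 and mcm-7 hold larger and mcm-2 and mcm-4 smaller shares in XO hermaphrodite than in XX male young adults.

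Part of the transcripts of mcm-2, mcm-3, mcm-4, mcm-6 and mcm-7 cannot be assigned with certainty. In the WBcel235 annotation each of these overlaps an adjacent protein-coding gene on the opposite strand. Libraries were stranded, but whether quantification used the strand is not given in the sources used here. In XX male young adults Y17G7B.23, which overlaps mcm-2, averaged 74.8 FPKM, and C25D7.16, which overlaps mcm-3, averaged 31.9 FPKM. In XO hermaphrodite young adults they averaged 0.328 and 0.0149 FPKM. The gene ekl-7, which overlaps mcm-4, went the other way, at 40.99 FPKM in XO hermaphrodite and 13.99 FPKM in XX male young adults. In larvae it averaged 4.58 FPKM in XO hermaphrodites and 7.23 FPKM in XX males. The overlapping genes of mcm-6 (srxa-10) and mcm-7 (F32D1.3) averaged at most 3.49 FPKM in any group. Neither mcm-5 nor pcn-1 overlaps a gene adjacent in this order. Reads of overlapping partners could not be told apart here, and their part in the results was not tested.

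The rest of the replication machinery was examined in 9 lists by role, 73 genes in all, of which 1 (cdk-4) lies on the X chromosome. In young adults 69 were higher in XO hermaphrodites, 1 was lower and 3 were not called, beside 33.9% of all tested genes called higher and 33.3% called lower. Their median log2 difference was 2.03, and 7 of the 73 exceeded the smallest difference among the MCM and PCNA genes. Those 7 were orc-1, cdt-1, ctf-4, rnr-1, rnr-2, tyms-1 and dut-1. All 8 genes of origin licensing were higher, with a median of 2.48. Among them orc-1, the ATPase subunit of the origin recognition complex, stood at 78.6 ± 12.1 against 6.46 FPKM (log2 difference 3.41, limma adjusted p = 1.27e-08). The loading factor cdt-1 had a log2 difference of 3.09. All 11 genes of helicase activation were higher as well, with a median of 2.40. They included ctf-4, which links the helicase to polymerase alpha in yeast (3.32), and evl-18, the CDC45 gene (2.98).

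The 8 genes of polymerases and primase, the 5 of the clamp loader, the 8 of single-strand binding and lagging-strand maturation and the 7 of fork protection and checkpoint were all higher too. Their medians were 2.08, 2.16, 1.68 and 1.91 on the log2 scale, and 33.9% of all tested genes were called higher in this comparison. Among them polh-1, a lesion-bypass polymerase, and pole-1, the leading-strand polymerase, had log2 differences of 2.42 and 2.31. The clamp loader genes rfc-3 and rfc-4 had 2.63 and 2.35, and the ligase gene lig-1 and the single-strand binding gene rpa-1 had 2.84 and 2.15. The fork protection gene tim-1 had 2.53 and the helicase gene rtel-1 had 2.16.

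The genes of nucleotide supply had the widest range. The ribonucleotide reductase subunit rnr-2 stood at 342 ± 42.0 FPKM (n = 3) in XO hermaphrodite and 11.7 FPKM in XX male young adults (log2 difference 4.76, limma adjusted p = 5.17e-08). The dUTPase gene dut-1 had a log2 difference of 4.12. The nucleoside diphosphate kinase gene ndk-1, which is also used outside replication, was lower at -0.45 (limma adjusted p = 0.0179), and no gene of the 73 was called lower with common sum or quantile scaling or without XO hermaphrodite replicate 1. Of the 9 genes of PCNA partners and licensing degradation 7 were higher, beside 33.9% of all tested genes. Among them were the mismatch repair genes msh-2 (2.42) and msh-6 (1.96). Of the 11 genes of G1-S control 10 were higher, among them the E2F and DP genes efl-1 (2.84) and dpl-1 (2.73). The CDK inhibitor genes cki-1 (0.10) and cki-2 (0.46) and the ubiquitin ligase gene rbx-1 (0.32) were not called.

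**Figure D4:**
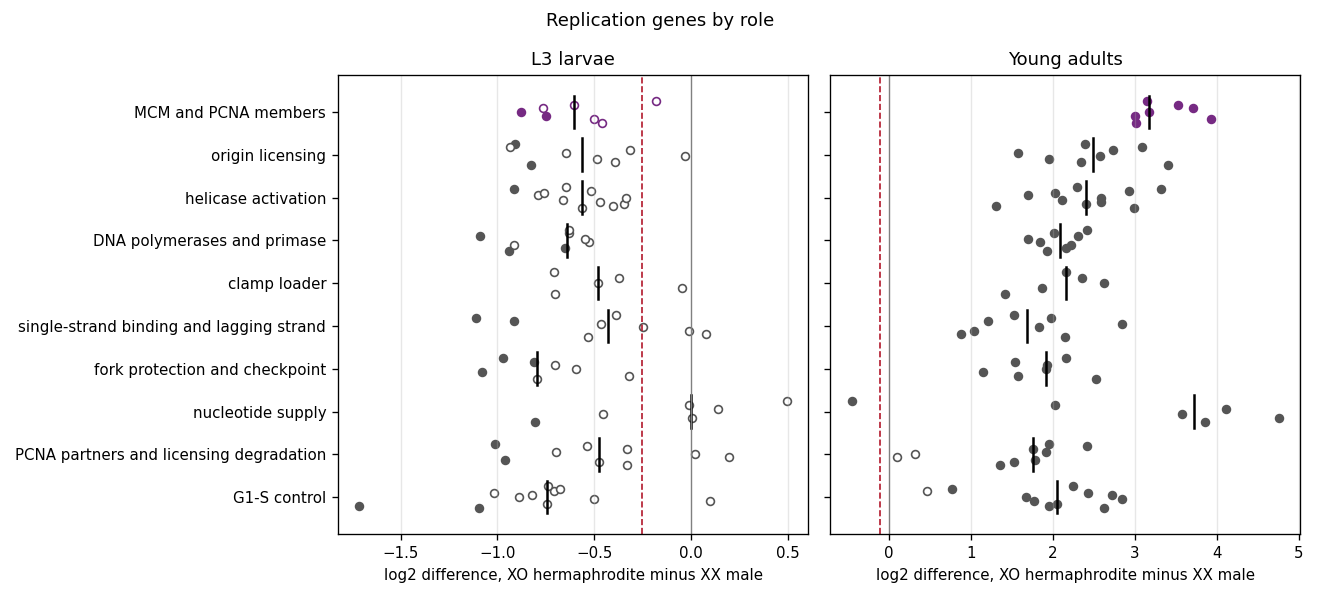
Log2 differences between XO hermaphrodites and XX males at L3 and in young adults for the 7 members (purple) and 73 other replication genes (grey) by role; filled points were called by limma, open points were not. Black lines are list medians and the dashed red line is the median of all tested genes. Every list median lies above 1 in young adults. At L3 the list medians lie below 0, with that of nucleotide supply at only -0.004.

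At L3, 16 of the 73 were lower in XO hermaphrodites and the other 57 were not called in limma, beside 4.31% of all tested genes called lower and 1.26% higher, with a median of -0.63. Called genes included polymerase subunits pole-1 (-1.09) and pola-1 (-0.94), ctf-4 (-0.92), the licensing inhibitor gmn-1 (-0.91), orc-1 (-0.83), the nucleases exo-1 (-1.11) and dna-2 (-0.91), and the checkpoint kinase atl-1 (-1.08). In G1-S control, cdk-2 had a log2 difference of -1.71 and its cyclin cye-1 one of -1.09. The degradation factor cdt-2 (-0.96), the mismatch repair gene msh-6 (-1.01), rtel-1 (-0.97) and rnr-1 (-0.80) were also lower. The 5 clamp loader genes were not called, with a median of -0.48. Of the 6 nucleotide supply genes only rnr-1 was called, and the list median was -0.004, above that of all tested genes (-0.25). As for the MCM genes, none of the 16 was called when limma was fitted to the larval libraries alone, and single libraries moved the count of lower genes from 4 without XO hermaphrodite replicate 3 to 38 without XO hermaphrodite replicate 1. It was 5 without XO hermaphrodite replicate 2, 8 without XX male replicate 1, 25 without XX male replicate 2 and 6 without XX male replicate 3.

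Within XO hermaphrodites 68 of the 73 rose from L3 to young adult and 2 fell, beside 33.7% of all tested genes called higher and 28.5% called lower. The 2 were the CDK inhibitor gene cki-1 (-1.96) and ndk-1 (-1.17). The number that fell was 4 with upper quartile and 1 with quantile scaling. The largest rises included cye-1 (3.56), orc-1 (3.51), the kinase gene cdc-7 (3.50), gmn-1 (3.44) and cdk-2 (3.39). Further rises were dut-1 (3.25), ctf-4 (3.15), rnr-2 (3.10), dna-2 (3.04), rfc-3 (2.96), him-6 (2.84) and cdt-2 (2.74). The D-type cyclin gene cyd-1 (-0.31) and its kinase gene cdk-4 (-0.64) were not called.

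Within XX males, 31 of the 73 genes fell, 5 rose and 37 were not called, with a median of -0.50, beside 28.5% of all tested genes called lower and 21.7% called higher. The difference from the 7 members was not tested. The number that fell was 13 with median ratio scaling, where 12 rose, and 19 without XX male L3 replicate 3. Only 6 of the 73 had a lower log2 difference than the largest fall among the 7 members. These were cyd-1, which fell from 13.6 ± 4.08 to 0.658 ± 0.0951 FPKM (log2 difference -3.11, limma adjusted p = 4.78e-06), tyms-1 (-2.62), cdk-4 (-2.31), rnr-1 (-2.07), cki-1 (-1.86) and rnr-2 (-1.65). In origin licensing cdt-1 (-1.15) and cdc-6 (-1.05) fell and orc-5 rose (0.74). Further falls were ctf-4 (-1.08), pri-1 (-1.08), ctf-18 (-0.97), mcm-10 (-0.92), div-1 (-0.91) and ddb-1 (-0.90). In contrast, cye-1 (-0.15) and cdk-2 (-0.28) were not called, and dna-2 (0.92), cdc-7 (0.72), rbx-1 (0.76) and cki-2 (1.03) rose.

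By the median of their list, germ line markers differed between the strains in the same direction as the members at both stages. From L3 to young adult XX males, however, none of 12 was called lower. Of 12 germ line markers 10 were called higher and none lower in XO hermaphrodite young adults, beside 33.9% and 33.3% of all tested genes. At L3 9 were called lower and none higher, beside 4.31% and 1.26% of all tested genes. These L3 calls come from the fit that pools the spread of all 4 groups, and a fit of larvae alone was not examined for the markers. Their summed level was 93.3 to 178 FPKM in XO hermaphrodite L3, 237 to 351 in XX male L3, 1201 to 1311 in XO hermaphrodite young adult and 392 to 458 in XX male young adult libraries. From L3 to young adult XX males, 4 of the 12 were called higher and none lower, with a median log2 difference of 0.29, while all 7 replication genes fell. Of all tested genes 21.7% were called higher and 28.5% lower there. The translational regulator gld-1 rose (log2 difference 0.95, limma adjusted p = 0.00598). The markers him-3 (0.43) and glp-1 (-0.44) were not called (limma adjusted p = 0.173 and 0.0724). The summed MCM level divided by the summed germ line marker level was 0.418 to 0.722 in XX male larvae and 0.175 to 0.198 in XX male young adults. In XO hermaphrodites it was 0.661 to 1.16 in larvae and 0.595 to 0.725 in young adults. The XX male young adult libraries thus had the lowest values, with no overlap with any other group. The part of the germ line in the differences of the members was not tested.

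**Figure D5:**
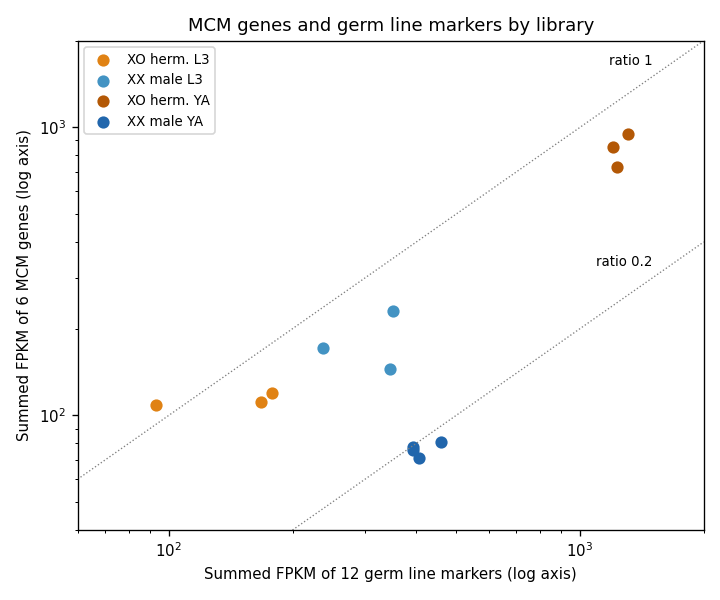
Summed FPKM of the 6 MCM genes against summed FPKM of 12 germ line markers, both on log axes, with points for libraries. Dotted lines mark ratios of 1 and 0.2; the 4 XX male young adult libraries lie near 0.2 and the other 9 above 0.4.

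Markers of other cells moved too. All 12 oocyte markers were higher in XO hermaphrodite young adults, at sums of 6932 to 8421 against 190 to 263 FPKM, and none was listed at 0 throughout either group. All 12 sperm markers were lower there, at 155 to 870 against 10677 to 18467 FPKM. At L3 the sperm sum reached 786 FPKM in XX male libraries, the lowest being at 2.96 FPKM. The 12 zygotic embryo markers summed to 21.5 to 34.8 FPKM in XO hermaphrodite and 16.2 to 25.6 FPKM in XX male young adults, where pes-10 was listed at 0 throughout. In larvae they summed to 32.3 to 51.3 FPKM in XO hermaphrodites and 57.7 to 73.2 FPKM in XX males, so this sum is no measure of embryos. Only 4 of the 12 were tested, and of these 2 were called higher and 1 lower in XO hermaphrodite young adults. In XO hermaphrodite young adults 6 of 8 intestinal, 7 of 8 muscle and 7 of 8 neuronal markers were lower and none higher. Of 8 epidermal markers 3 were lower and 1 higher, and all 6 tested male somatic markers were lower. Of all tested genes 33.3% were called lower and 33.9% higher in this comparison, and the epidermal count of lower genes was near that share. The part of these cell types in the differences of the replication genes was not tested.

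The genes with the profile most like the MCM genes were taken by the root mean square difference of centred log2(FPKM + 1) values over the 13 libraries, which share the groups and their depths. Single MCM genes differed from the mean of the other 5 by 0.183 (mcm-5) to 0.287 (mcm-2), and pcn-1 differed from the mean of all 6 by 0.296. Nearest to the MCM mean among 14621 other genes was ctf-4, at 0.156, with means of 7.05 and 14.7 FPKM in XO hermaphrodite and XX male larvae and 70.4 and 6.17 FPKM in the respective young adults. It was followed by Y53C10A.6 (0.186), W04A8.6 (0.188), the chromosomal passenger gene icp-1 (0.205), gon-4 (0.208) and the importin alpha gene ima-2 (0.209). Of the 73 other replication genes 5 were among the 20 nearest and 15 among the 100 nearest. Nearest to pcn-1 were R05H5.3 (0.199), K08F9.4 (0.224), erh-2 (0.246), madf-8 (0.246), the poly(ADP-ribose) polymerase gene pme-2 (0.251) and the spindle checkpoint gene mdf-2 (0.254). With other scalings and a pseudocount of 0.1, 4 or 5 of the 6 MCM neighbours stayed in the list, and between 2 and 6 of those of pcn-1.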

How the data were processed

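Per the file headers, the values deposited by the authors are FPKM of each gene in each library, from oligo(dT)-selected stranded libraries, per the labels' protocols. Per the submitters' processing notes Cufflinks 2.2.0 was used; aligner, annotation and genome build: not given in the sources used here. The 14 value columns matched the samples by name, with 0 unmatched. Of 20417 rows, 6 repeats and 35 genes with missing values were removed. Replicate numbers follow the sample titles. The column headers also count the reverted TY2205 young adult library, and so number the later libraries of that group differently. The fit was limma 3.58.1 in R 4.3.3 (lmFit, eBayes with trend, 4 group means, no covariate) on log2(FPKM + 1), adjusted over 14628 genes. The fit was tested on simulated data in which each gene had the same spread in all groups. Larvae varied more than young adults in the real data, so the simulation does not test L3 calls made with a pooled spread. Symbols of the lists were matched by the table, by current names of the same IDs, or by RefSeq locus tag; of 78 names 73 were found. Named genes were all members, up to 2 called genes per list and direction with the largest change in each comparison of groups, and the 6 nearest profiles. Others are named as the full content of a count, or as genes chosen after their values were seen. The members and lists were chosen with earlier results of these data known. Alternatives covered pseudocount, filter, scaling, variance model, weights, samples fitted, a replicate block and leaving out each replicate.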

Additional observations from a re-analysis of the deposited data

Results flagged for a closer look

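The strain difference changed between stages for all 7 genes by the interaction term of limma, which is the reason they are listed here. Of all tested genes 32.6% were called in the same direction and 23.9% in the other. The change of the log2 difference, young adult minus L3, was 3.48 for mcm-2, 4.42 for mcm-3, 3.75 for mcm-4, 4.05 for mcm-5, 4.47 for mcm-6, 4.13 for mcm-7 and 3.33 for pcn-1.

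The TY2205 young adult library that its submitters marked as reverted was outside every comparison and is given only as values. It held 160.3 FPKM of mcm-2, 141 of mcm-3, 120.1 of mcm-4, 123 of mcm-5, 131 of mcm-6, 216 of mcm-7 and 507 of pcn-1. For mcm-5 and mcm-6 this was slightly above all XO hermaphrodite young adult libraries, and for the other 5 genes it lay within their range. All 7 values were above every XX male young adult library. The share of all genes for which this holds was not counted for the reverted library. Of all tested genes 37.5% were higher without overlap in XO hermaphrodite than in XX male young adults.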

How the results depend on the processing

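Outside the L3 comparison, the 28 member results kept their direction and their call under all alternatives run, 560 values in all. Scaling shifted the median of all genes in young adults from -0.11 to between -0.36 (upper quartile) and 0.27 (quantile), and member differences there stayed between 2.63 and 4.33. At L3 the count of called members was 2, but 5 with common sum scaling and 4 with array weights. It was 0 with median ratio, upper quartile or quantile scaling and 0 in a fit of only the L3 groups. Leaving out 1 library gave 0 to 4. The pcn-1 difference at L3 turned to 0.16 with upper quartile scaling. The replicate block used the title numbers and was fitted to only the groups compared. It gave 0 called members at L3 and changed no other member call. In it XX male young adult replicate 4 has no partner and adds nothing to the strain comparison. A block by column header number was not fitted. By the title numbers, same-numbered libraries correlated at -0.06 to -0.02 among larvae and at 0.05 to 0.30 among young adults. Of the young adult pairs 2 of 3 were above 0.1, and all 3 XO hermaphrodite libraries correlated best with their own number, a hint of pairing from the data. The column headers, however, number XO hermaphrodite young adult replicates 2 and 3 as 3 and 4. By header number they pair with XX male replicates 3 and 4, at correlations of -0.21 and -0.04, and the hint is absent. The labels name nothing that a number shares, and not every pair passed 0.1, so the numbers were not taken as pairs. Among the other 73 genes, 16 called lower at L3 became 41 with array weights, 31 with common sum scaling, 24 with a pseudocount of 0.1 or a minimum of 5 FPKM, 9 with upper quartile and 6 with quantile scaling. With the block it was 0, and the 31 that fell between stages in XX males became 20. The causes were not tested. Absolute depth is unknown, and most L3 libraries were shallower.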

Other observations

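Of 14 protein-coding genes adjacent to the members by start position in the WBcel235 annotation, 11 were tested. In young adults 3 were higher and 6 lower in XO hermaphrodites by limma, beside 33.9% and 33.3% of all tested genes. The 3 were ekl-7 beside mcm-4 (log2 difference 1.504), nth-1, a DNA repair gene beside mcm-5 on the same strand (1.68), and cdc-73 beside pcn-1 (1.23). The lowest was Y17G7B.23 beside mcm-2 (-5.81), whose mean rose from 0.688 FPKM in XX male larvae to 74.8 FPKM in XX male young adults. Also lower were C25D7.16 and C25D7.15 beside mcm-3 (-5.01 and -2.81), R10E4.3 beside mcm-5 (-2.81), glb-29 beside mcm-2 (-1.28) and wrt-5 beside pcn-1 (-0.62). The genes beside mcm-7, hpo-18 (0.23) and F32D1.3 (-0.32), were not called. These genes were chosen by position after the members' values were seen.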
